A study of Homo sapiens with 12 samples.

Results

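The genes of homologous recombination and of the Fanconi anemia pathway were followed in A375 cells, a human melanoma line that carries an activating BRAF mutation, through treatment with inhibitors of the MAPK pathway and after their removal. The members were 41 genes chosen by symbol from a fixed list, out of 44659 genes listed in the count table, and the rule uses no measured value, although the list was drawn up with earlier results of these data known. All 41 were listed and all 41 passed the filter on low counts (a mean scaled count of at least 10 over the 12 libraries), together with 15916 genes in all. There were 4 groups of 3 libraries. Control cells (CC) were kept for 72 h with DMSO, the solvent of the drugs. Treated cells (TC) were kept for the same time with the BRAF inhibitor vemurafenib and the MEK inhibitor cobimetinib at 500 nM each (MAPKi). Persister cells (PC) had the same 72 h of drugs and then drug-free medium for 2 days, and recovered cells (RC) had 9 days of drug-free medium. All groups came from 1 cell line in medium with serum and glutamine, RNA came from the cytoplasmic fraction, and ribosomal RNA was depleted. CC was harvested together with TC only, so that days in culture and passage cannot be told apart from group in PC and RC. No source used here says that replicates were separate cultures, and p-values then measure only the spread between these libraries.

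Homologous recombination repairs a broken chromosome by copying the sister chromatid. The ends are recognized and cut back to single strands, the BRCA proteins prepare them for strand invasion, and the joined molecules are later dissolved by the BLM complex or cut by nucleases. The Fanconi proteins act where the strands are crosslinked: a core complex attaches ubiquitin to FANCD2 and FANCI, which calls in nucleases and the recombination proteins. Sister chromatids exist only after replication, and many of these genes are known to be transcribed in S and G2 phase.

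Promoter sequences of the members are shown because many members moved together, with ATR as the clearest exception. RefSeq promoters (GRCh38.p14) were matched for 37 of the 41 members, and RAD54B, NBN, RMI2 and FANCI had no entry. The 100 bases before the start of ATR, at chr3:142578734-142578833 on the minus strand, hold no match to either motif below.

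ATR: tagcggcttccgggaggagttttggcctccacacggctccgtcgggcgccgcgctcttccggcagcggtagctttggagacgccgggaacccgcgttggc

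An E2F motif, the letters bound by the E2F factors that drive S phase genes, was searched as TTTCCCGC, TTTCGCGC, TTTGCCGC or TTTGGCGC on either strand. Within 250 bases upstream and 50 downstream of a start, a window chosen after the data were seen, 6 of the 37 members held it (16.2%), against 6.44% of 11587 tested genes. In the 250 upstream bases alone, 3 members held it (8.11%), against 5.45% of tested genes. In the following lines of 28 bases, written 5′ to 3′ on the gene's strand, capitals mark the match.

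FANCD2: gtcgggcctgGCGGGAAAgtcgaaaact
XRCC2: ggcgttggtgGCGGGAAAgttgagtctc
RMI1: gcgcgagcgcGCGGCAAAtcgggcggga
GEN1: agttgcggggTTTCGCGCcgccggagtc
FANCC: tcgtcggaatTTTCCCGCgacgccgcgg
FANCA: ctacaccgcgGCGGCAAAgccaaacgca

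These lie at chr3:10026425-10026452 for FANCD2, chr7:152676103-152676130 for XRCC2, chr9:83980763-83980790 for RMI1, chr2:17753860-17753887 for GEN1, chr9:95317738-95317765 for FANCC and chr16:89816802-89816829 for FANCA. XRCC2, FANCC and FANCA are on the minus strand and the others on the plus strand. The matches of FANCD2 and XRCC2 have the same 8 letters, and that of FANCC is their reverse complement. FANCC held another match further upstream. All 6 genes were lower in TC, with log2 changes from -3.31 for XRCC2 to -0.47 for GEN1. So were 31 of the 41 members, against 34.7% of all tested genes. In the 250 upstream bases, the median log2 change in TC was -0.91 for 3 members with the motif and -1.20 for 34 without. In the longer window the medians were -1.50 for 6 and -1.05 for 31. Over the 11587 tested genes, the medians with and without the motif were -0.12 and -0.007 upstream and -0.15 and -0.004 in the longer window.

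The CHR motif (TTTGAA or TTCGAA on either strand), known from genes expressed in G2 and mitosis, was found in the 250 upstream bases of 4 of the 37 members (10.8%), against 14.0% of tested genes. They were UBE2T, FANCC, ATM and BRIP1. The lines below show the match in UBE2T, at chr1:202342073-202342100 on the minus strand, and in ATM, at chr11:108223036-108223063 on the plus strand, since these genes took opposite directions in RC.

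UBE2T: gcgcgctctcaTTTGAAtgcgtgagcgt
ATM: gtcacgcagggTTTGAAccggaagcggg

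A match of these letters is a description and not a binding site, and most members that fell held neither motif in these windows.

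Total counts ran from 37773389 to 55567097 per library and 20591 to 22363 genes were detected, so that 3 counts correspond to 0.0540 to 0.0794 CPM by library (counts scaled to the normalized library size). The 8 melanoma lineage markers summed to 1661 to 1889 CPM in CC, 7076 to 10290 in TC, 3484 to 5090 in PC and 1526 to 1592 in RC. SOX10 was at 539 to 1067 CPM in every library, MIA was near 0 throughout and MLANA was under 1 CPM in CC and RC. DCT went from 337 to 444 CPM in CC to 5261 to 7866 in TC, and PMEL from 63.3 to 75.3 to 420 to 817. S100B went the other way, from 234 to 305 CPM in CC to 128 to 149 in TC. MITF overlapped, with 303 to 476 CPM in CC and 236 to 407 in TC, and TYR was at most 5.93 CPM in any library. Of the 4 keratinocyte markers, KRT5 and KRT1 were at or near 0, KRT14 reached 2.64 CPM in PC, and KRT10 ran from 40.6 to 52.1 CPM in CC and from 88.1 to 102 in TC and PC. The 4 fibroblast markers summed to at most 6.15 CPM in any library, with COL1A2 and DCN near 0 and COL1A1 up to 4.87 in PC, and the 4 markers of blood and endothelium to at most 0.825. The part of these markers in the members' changes was not tested. The 20 markers of S, G2 and M phase summed to 2303 to 2786 CPM in CC, 263.5 to 295.1 in TC, 699.4 to 824.1 in PC and 3866 to 4016 in RC. Of these, 19 fell in TC, 18 fell and CCNE2 rose in PC, and all 20 rose in RC (edgeR, adjusted p under 0.05). The part of cell cycle phase in the members' changes was not tested, and in bulk RNA fewer cells in a phase and less RNA per cell cannot be told apart.

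MAPKi treatment lowered most of the pathway. In TC, 31 of the 41 members fell and 3 rose, against 34.7% of all tested genes that were called lower and 33.2% called higher (edgeR's quasi-likelihood test, Benjamini-Hochberg adjusted p under 0.05). Beyond 1.5-fold, 25 members were lower and 1 was higher, against 19.3% and 16.1% of all tested genes. The median log2 fold change of the members was -1.05, against -0.02 over all tested genes. At 2 days after the drugs were removed, 27 members were still lower in PC than in CC and 4 were higher, where 35.9% and 33.2% of all tested genes were called. In PC 23 members were lower beyond 1.5-fold and 0 were higher, against 19.9% and 17.2% of all genes. Leaving out PC replicate 2 made it 1 higher, TOP3A. Their median was -0.93, against -0.04 over all genes.

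In RC the direction was the opposite. Of the 41 members, 27 were higher than in CC and ATM alone was lower, where 18.2% and 19.1% of all tested genes were called (edgeR). The members' median log2 fold change was 0.62, against 0.00 over all genes. Without CC replicate 2, RAD50 and MUS81 were also called lower, which made 3. Beyond 1.5-fold, 6 members were higher and 0 were lower, against 1.35% and 2.52% of all genes. They were RAD54L, RAD54B, RMI1, FANCA, SLX4 and EME1. The count of 6 rested on single libraries: it was 3 without CC replicate 1, 3 without RC replicate 1 and 2 without RC replicate 2.

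**Figure D1:**
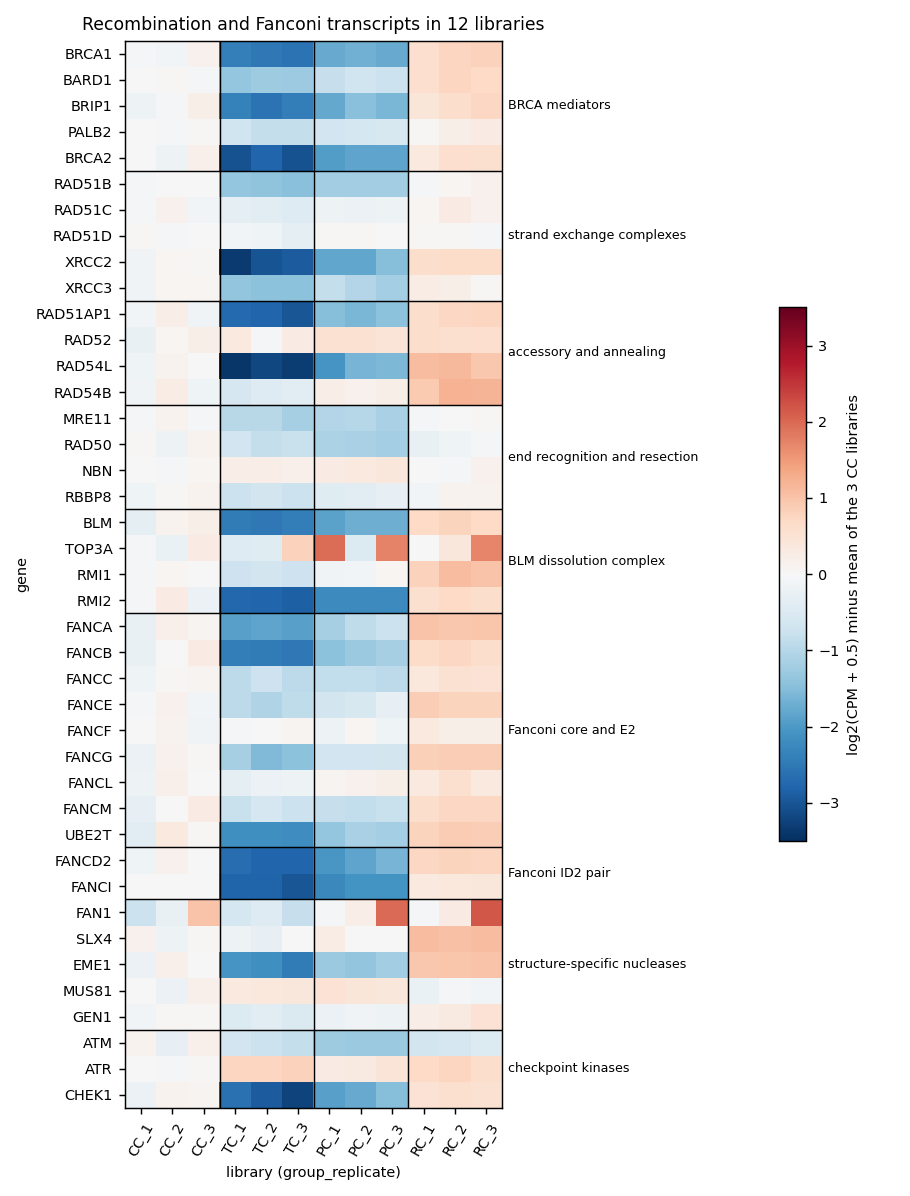
Heat map of the 41 members (rows, grouped by role) in the 12 libraries (columns), coloured by log2(CPM + 0.5) minus the mean of the 3 CC libraries. Most rows are blue in TC, paler blue in PC and red in RC, while ATR, NBN and MUS81 are pale red in TC and ATM stays blue in RC.

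The largest group, 20 members, fell in TC and in PC and rose above CC in RC. Taken singly, 34.7% of all tested genes were called lower in TC, 35.9% lower in PC and 18.2% higher in RC. The share of all tested genes with this joint course, or with those below, was not computed. The 20 members were BRCA1, BARD1, BRIP1, BRCA2, XRCC2, RAD51AP1, RAD54L, BLM, RMI2, FANCA, FANCB, FANCC, FANCE, FANCG, FANCM, UBE2T, FANCD2, FANCI, EME1 and CHEK1. Another 6 members, PALB2, RAD51B, XRCC3, MRE11, RAD50 and RBBP8, fell in TC and PC and were not called in RC. RAD54B, RMI1 and GEN1 fell in TC only and rose in RC, and RAD51C was called in TC alone. The remaining members took other courses and are described below with their partners.

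The BRCA mediators act on the cut-back ends before strand invasion. All 5 fell in TC and in PC, and 4 rose in RC, where 34.7%, 35.9% and 18.2% of all tested genes were called in these directions. BRCA2, which acts on the single-stranded DNA (chr13:32315086-32400268, plus strand), had 23.5, 20.5 and 26.7 CPM in CC and 2.41, 2.99 and 2.41 in TC, followed by 5.73, 6.13 and 6.11 in PC and 29.7, 35.8 and 34.9 in RC. No library of one group overlapped another group's, and the order was TC, PC, CC, RC. The log2 fold change of BRCA2 was -3.18 ± 0.13 (SE) in TC (adjusted p = 1.18e-09, edgeR), -1.98 ± 0.12 in PC and 0.50 ± 0.12 in RC.

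BRCA1, the ubiquitin ligase that steers breaks to recombination, went from 75.8 ± 6.85 CPM in CC (SD, n = 3) to 13.1 ± 0.93 in TC, 22.3 ± 0.71 in PC and 124 ± 9.89 in RC. BARD1, its partner in the ligase, changed less in TC, with a log2 fold change of -1.36 against -2.53 for BRCA1. BRIP1, a helicase bound by BRCA1, was at -2.61. PALB2, the bridge between BRCA1 and BRCA2, changed least of the 5 in TC (-0.81 ± 0.09) and was not called in RC (0.19 ± 0.09, adjusted p = 0.108).

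RAD51B, RAD51C, RAD51D, XRCC2 and XRCC3 belong to 2 known complexes that assist strand exchange, and they did not move as a block. XRCC2 (chr7:152644776-152676193, minus strand) had 22.7, 26.0 and 25.7 CPM in CC and 2.00, 2.61 and 2.87 in TC. It then had 6.64, 6.69 and 8.53 CPM in PC and 37.9, 38.8 and 39.1 in RC. All 4 groups stood apart, with log2 changes against CC of -3.31 ± 0.14 in TC (adjusted p = 1.50e-09, edgeR), -1.77 ± 0.13 in PC and 0.64 ± 0.12 in RC.

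RAD51D, which binds XRCC2 directly, was not called in any of the 5 comparisons and had mean levels of 13.3, 11.7, 13.5 and 13.4 CPM in CC, TC, PC and RC. The log2 ratio of RAD51D to XRCC2 went from -0.90 ± 0.15 in CC (SD, n = 3) to 2.25 ± 0.38 in TC and -1.53 ± 0.07 in RC. RAD51B and XRCC3 both fell by 1.48 on the log2 scale in TC and were not called in RC, while RAD51C changed by -0.41 in TC and was not called in PC or RC. XRCC3 shares 76.7% of its exon bases in GENCODE v44 with KLC1 on the opposite strand. Whether counting used strand was not stated, and KLC1 itself had a log2 fold change of 0.18 in TC, so the XRCC3 values are uncertain.

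Among the accessory and annealing genes the RAD54 pair parted. RAD54L, the motor that drives strand invasion (chr1:46246461-46278480, plus strand), fell most of all members in TC. It had 18.4, 22.4 and 20.5 CPM in CC and 1.45, 1.79 and 1.59 in TC, followed by 4.45, 6.19 and 6.54 in PC and 43.3, 45.1 and 39.6 in RC. Its groups did not overlap, and its log2 changes were -3.66 ± 0.15 in TC (adjusted p = 1.40e-09, edgeR), -1.83 ± 0.14 in PC and 1.06 ± 0.13 in RC. RAD54L shares 19.9% of its exon bases with LRRC41 on the opposite strand, which was at 0.21 in TC.

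RAD54B, the related motor, had 12.4, 16.4 and 12.3 CPM in CC and 8.78, 9.84 and 10.5 in TC, followed by 16.1, 15.1 and 15.7 in PC and 25.9, 32.5 and 31.8 in RC. Its TC libraries were all below CC, its PC libraries overlapped CC and its RC libraries were highest. The log2 change was -0.50 ± 0.13 in TC, 0.19 ± 0.13 in PC (adjusted p = 0.199, edgeR) and 1.13 ± 0.13 in RC, the largest rise of a called member there. The log2 ratio of RAD54B to RAD54L was -0.58 ± 0.14 in CC, 2.59 ± 0.13 in TC, 1.47 ± 0.34 in PC and -0.51 ± 0.21 in RC.

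RAD51AP1, which stimulates strand pairing, fell by 2.98 in TC. RAD51AP1 ran from 30.7 to 39.5 CPM in CC, from 3.75 to 4.64 in TC, from 10.8 to 12 in PC and from 51.3 to 56.6 in RC, with no overlap between groups. RAD52, which anneals strands and can serve as a back-up mediator, did not fall in any group. It had 4.42, 5.67 and 6.33 CPM in CC and 7.02, 5.21 and 6.75 in TC, followed by 8.14, 7.995 and 7.54 in PC and 8.62, 8.21 and 8.36 in RC. Its PC and RC libraries were all above CC, with log2 changes of 0.53 ± 0.15 and 0.62 ± 0.15 (adjusted p = 0.00726 and 0.00684, edgeR), while TC overlapped CC.

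**Figure D2:**
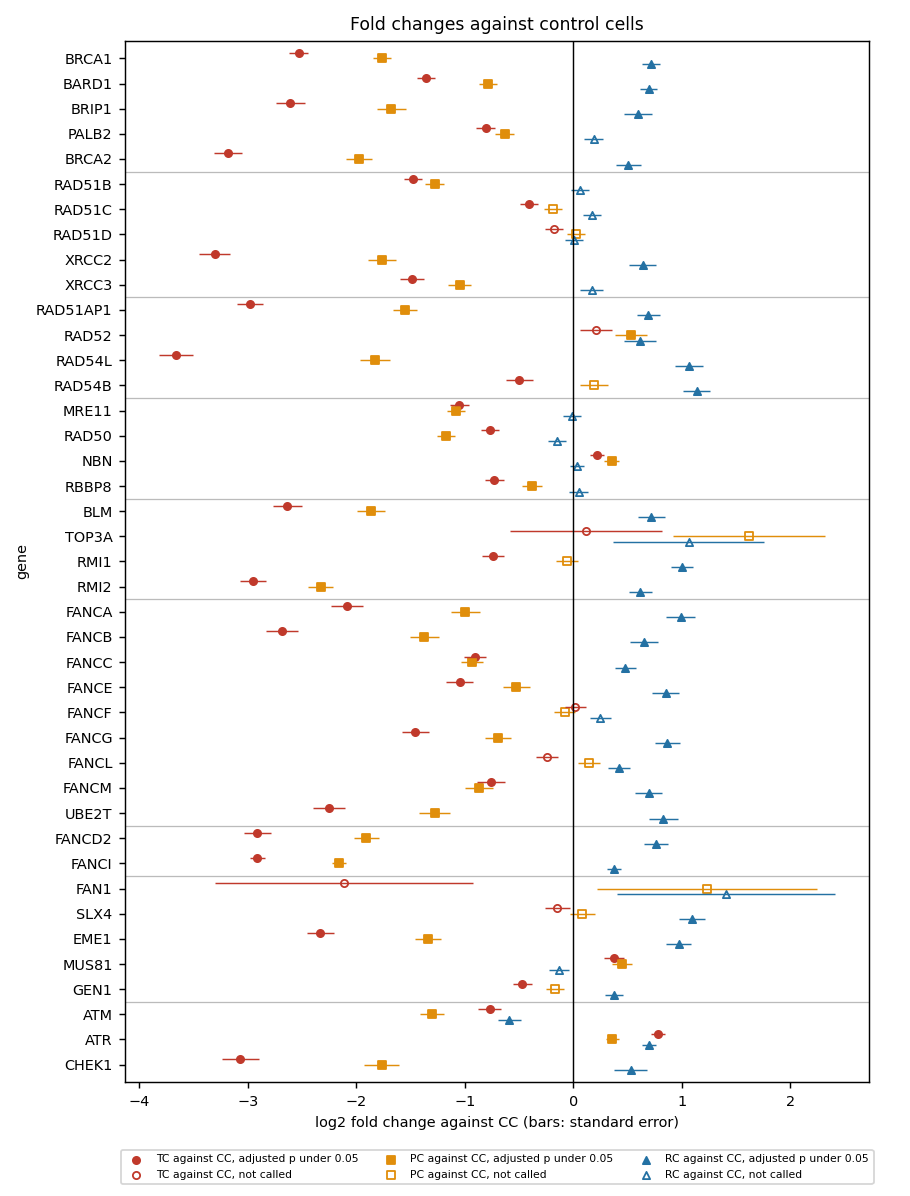
Log2 fold changes of the 41 members against CC (points) with standard errors (bars) in TC (red circles), PC (orange squares) and RC (blue triangles), filled where edgeR's adjusted p was under 0.05. In TC the points run from -3.66 for RAD54L to 0.78 for ATR, and most RC points lie right of 0, with ATM at -0.59.

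The genes of end recognition and resection had log2 changes from -1.05 to 0.22 in TC. MRE11 and RAD50, the nuclease and the tether of the MRN complex, both fell in TC (-1.05 and -0.77) and in PC (-1.09 and -1.17). NBN, the third subunit, which recruits ATM, moved the other way. It had 39.6, 38.0 and 42.0 CPM in CC and 47.3, 46.7 and 45.0 in TC, followed by 48.9, 50.6 and 52.96 in PC and 39.5, 38.8 and 43.9 in RC. NBN was above CC in every TC and PC library, by 0.22 ± 0.07 and 0.35 ± 0.07 on the log2 scale (adjusted p = 0.0117 and 0.000470, edgeR), and overlapped CC in RC.

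The log2 ratio of NBN to RAD50 was -0.79 ± 0.09 in CC, 0.19 ± 0.07 in TC, 0.73 ± 0.10 in PC and -0.61 ± 0.07 in RC (SD, n = 3). RBBP8 (CtIP), which starts resection with MRN, fell by 0.73 in TC and by 0.38 in PC. None of the 4 genes of this role was called in RC, where 18.2% of all tested genes were called higher and 19.1% lower.

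The BLM complex dissolves joined molecules. BLM, its helicase, fell by 2.64 in TC and 1.86 in PC on the log2 scale and was 0.72 higher in RC. BLM ran from 15.9 to 23.4 CPM in CC, from 3.19 to 3.39 in TC, from 5.15 to 5.91 in PC and from 33.1 to 34.8 in RC. RMI2, its smallest subunit, had 29.9, 38.3 and 27.5 CPM in CC and 4.30, 4.17 and 3.90 in TC, followed by 6.30, 6.39 and 6.36 in PC and 46.7, 51.5 and 48.5 in RC. Its groups did not overlap, and its PC value of -2.33 ± 0.11 was the largest fall of any member in PC (adjusted p = 4.93e-09, edgeR).

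RMI1, the scaffold that binds RMI2, fell by 0.75 in TC, was at -0.06 ± 0.10 in PC and rose by 1.00 in RC. The log2 ratio of RMI1 to RMI2 went from -1.73 ± 0.19 in CC to 0.47 ± 0.09 in TC and 0.52 ± 0.10 in PC, and was -1.36 ± 0.08 in RC. TOP3A, the topoisomerase of the complex, was not called in any comparison in the fit used here and varied between replicates, with counts of 64, 61 and 104 in CC and 43, 44 and 177 in TC, followed by 307, 49 and 294 in PC and 68, 134 and 355 in RC. Its log2 change in PC, 1.62 ± 0.70 (adjusted p = 0.0577, edgeR), was called with a summed count filter, with the compared groups only and with a replicate block, at adjusted p of 0.0487, 0.0489 and 0.0360, and without TC replicate 3, PC replicate 2 or RC replicate 3 (0.0454, 0.00796 and 0.0400). Over all settings tried its adjusted p ran up to 0.190.

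**Figure D3:**
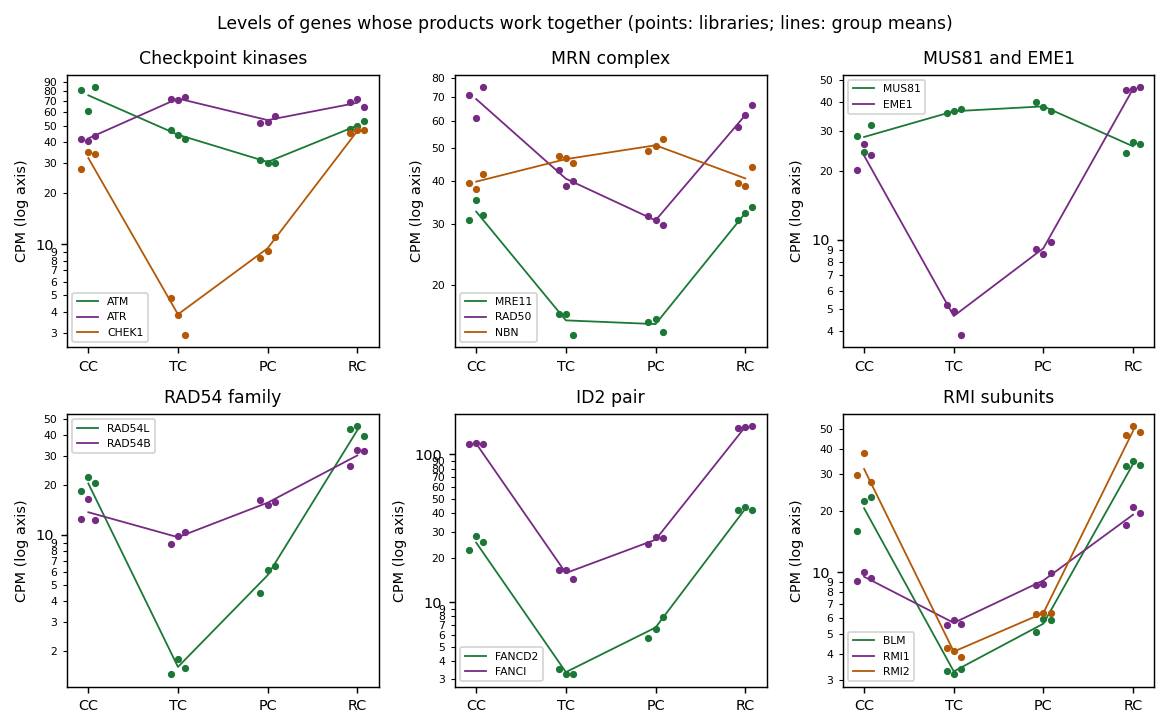
CPM (log axis) of genes whose products work together in the 4 groups; points are libraries and lines join group means. ATM lies above ATR in CC and below it in TC, PC and RC, and NBN rises where MRE11 and RAD50 fall. MUS81 and RAD54B change less than EME1 and RAD54L, and FANCD2 and FANCI fall side by side in TC.

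Of the 9 genes of the Fanconi core and its ubiquitin-conjugating enzyme, 7 fell in TC and in PC and 8 rose in RC. The shares of all tested genes called in these directions were 34.7% in TC, 35.9% in PC and 18.2% in RC. The E2 enzyme UBE2T fell by 2.25 in TC and 1.28 in PC. UBE2T ran from 27.6 to 45.1 CPM in CC, from 7.52 to 7.72 in TC, from 13.7 to 15.9 in PC and from 61.5 to 67 in RC, again with no overlap. FANCB, on the X chromosome, fell by 2.69 in TC, FANCA by 2.09, FANCG by 1.46, FANCE by 1.05, FANCC by 0.91 and FANCM, the translocase that anchors the core, by 0.76. FANCC and FANCM were at -0.93 and -0.87 in PC, and their differences from TC (-0.02 and -0.11) were not called. FANCL, the ligase subunit itself, was at -0.24 ± 0.10 in TC (adjusted p = 0.0511, edgeR), a value near the threshold that was called with upper quartile factors, with library totals, with a replicate block and without CC replicate 1.

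FANCF, the adaptor of the core, had means of 19.1, 19.3, 18.04 and 22.7 CPM in CC, TC, PC and RC and was called in none of the comparisons with CC. In RC it was at 0.25 ± 0.10 (adjusted p = 0.0615, edgeR), near the threshold, and its libraries did not overlap CC. FANCF was called there with DESeq2, with library totals, and without CC replicate 2 or PC replicate 2. FANCA shares 19.6% of its exon bases with ZNF276 and FANCF 9.57% with GAS2, both on the opposite strand.

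FANCD2 and FANCI, the pair that receives ubiquitin, fell together in TC. FANCI (chr15:89243945-89317261, plus strand) had 117, 120 and 118 CPM in CC and 16.5, 16.4 and 14.4 in TC, followed by 24.6, 27.5 and 27.3 in PC and 151, 154 and 155 in RC. Its groups stood apart, with log2 changes of -2.91 ± 0.07 in TC (adjusted p = 2.96e-11, edgeR), -2.16 ± 0.07 in PC and 0.37 ± 0.06 in RC. FANCD2 was also at -2.91 in TC. FANCD2 ran from 22.6 to 27.8 CPM in CC, from 3.25 to 3.55 in TC, from 5.7 to 7.89 in PC and from 42.2 to 43.8 in RC. Its log2 ratio to FANCI was -2.23 ± 0.13 in CC, -2.23 ± 0.10 in TC, -1.99 ± 0.17 in PC and -1.84 ± 0.03 in RC. In RC FANCD2 was 0.76 above CC on the log2 scale. FANCD2 and BRCA1 have known pseudogene copies, and how reads with several alignments were counted was not stated, so their values are uncertain to that degree.

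The nucleases that cut joined molecules and crosslinks split. EME1, the partner subunit of MUS81, fell by 2.33 in TC and 1.34 in PC and was 0.97 higher in RC. EME1 ran from 20.3 to 26.4 CPM in CC, from 3.84 to 5.21 in TC, from 8.65 to 9.81 in PC and from 45 to 46.6 in RC, without overlap. MUS81, the catalytic subunit, had 28.4, 24.3 and 31.8 CPM in CC and 35.8, 36.5 and 37.2 in TC, followed by 40.2, 38.1 and 36.7 in PC and 23.98, 26.7 and 26.2 in RC. Its TC and PC libraries were all above CC and its RC libraries overlapped CC, with log2 changes of 0.37 ± 0.09, 0.44 ± 0.09 and -0.14 ± 0.09 (adjusted p = 0.00303, 0.000873 and 0.269, edgeR).

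MUS81 shares 13.9% of its exon bases with CFL1 on the opposite strand, a gene at 486 CPM in CC that was at 0.82 in TC, 0.94 in PC and 0.59 in RC. The part of CFL1 reads in the MUS81 values was not tested. The log2 ratio of MUS81 to EME1 was 0.27 ± 0.34 in CC, 2.98 ± 0.26 in TC, 2.06 ± 0.13 in PC and -0.84 ± 0.07 in RC. EME1 shares 16.4% of its exon bases with LRRC59 on the opposite strand, a gene at 298 CPM in CC. LRRC59 was at -0.08 in TC, -0.10 in PC and 0.70 in RC. The part of LRRC59 reads in the EME1 values was not tested.

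SLX4, the scaffold that holds MUS81 and other nucleases, had 13.9, 10.98 and 12.8 CPM in CC and 11.1, 10.2 and 12.7 in TC, followed by 15.1, 12.4 and 12.3 in PC and 27.1, 26.2 and 26.9 in RC. TC and PC overlapped CC, and RC stood above all other libraries, by 1.09 ± 0.12 over CC (adjusted p = 5.37e-05, edgeR). GEN1, a resolvase that acts in mitosis, fell by 0.47 in TC and was 0.37 higher in RC.

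FAN1, a crosslink nuclease, was close to the limit of detection, with counts of 4, 15 and 71 in CC and 6, 9 and 4 in TC, followed by 18, 31 and 150 in PC and 19, 41 and 211 in RC. It was not called in any comparison in the fit used here, and replicate 3 was the highest of the 3 in CC, PC and RC. Its log2 difference between PC and TC, 3.35 ± 1.18 (adjusted p = 0.0576, edgeR), was called with DESeq2 (adjusted p = 0.0199), a summed count filter (0.0487), the compared groups only (0.0270) and a replicate block (0.0235), and without CC replicate 1, CC replicate 3, PC replicate 1 or RC replicate 3 (0.0341 to 0.0492). It was 1.93 without PC replicate 3 (adjusted p = 0.296). The table also listed numbered copies under the names FAN1 and TOP3A, which were kept apart. Summed over the 12 libraries, the copies of FAN1 had 0 and 40 counts, against 579 for FAN1. The copy of TOP3A had 15, against 1700 for TOP3A, so the counts of these genes may be split to that extent only. FAN1 also shares 8.96% of its exon bases with MTMR10 on the opposite strand.

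The checkpoint kinases showed 3 courses. CHEK1, the kinase that holds the cell cycle when forks stall, fell by 3.07 in TC and 1.77 in PC. CHEK1 ran from 27.5 to 35 CPM in CC, from 2.91 to 4.82 in TC, from 8.24 to 11 in PC and from 45.2 to 47.2 in RC. Its rise in RC of 0.53 ± 0.15 (adjusted p = 0.0177, edgeR) lost its call without CC replicate 1 (adjusted p = 0.0735) and without RC replicate 2 (adjusted p = 0.0544). ATM, the kinase activated by broken ends (chr11:108223044-108369102, plus strand), had 81.0, 60.7 and 84.4 CPM in CC and 47.1, 43.8 and 41.5 in TC, followed by 31.3, 30.2 and 30.0 in PC and 47.5, 49.6 and 52.9 in RC.

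ATM was below CC in every other library, by -0.77 ± 0.11 in TC, -1.30 ± 0.11 in PC and -0.59 ± 0.11 in RC (adjusted p = 3.77e-05, 3.96e-07 and 0.00112, edgeR). ATR, the kinase activated by single-stranded DNA (chr3:142449007-142578733, minus strand), had 41.9, 40.6 and 43.5 CPM in CC and 71.7, 70.8 and 74.0 in TC, followed by 51.8, 52.4 and 57.3 in PC and 68.9, 71.3 and 64.1 in RC. ATR was above CC in every other library, by 0.78 ± 0.06 in TC, 0.36 ± 0.06 in PC and 0.70 ± 0.06 in RC (adjusted p = 2.99e-07, 0.000239 and 2.23e-05, edgeR). It was the single member higher beyond 1.5-fold in TC and the single member higher in all 3 groups.

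The log2 ratio of ATM to ATR was 0.83 ± 0.22 in CC, -0.71 ± 0.11 in TC, -0.82 ± 0.10 in PC and -0.45 ± 0.15 in RC (SD, n = 3), so that CC lay apart from the other groups in every library. Pairs for these ratios were chosen after their values were seen, gene lengths differ within a pair, and no test was run on the ratios.

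Between the end of treatment and day 2 without drug, 24 members rose and 3 fell, where 12.2% and 12.5% of all tested genes were called (PC against TC, edgeR). RAD54L rose most, by 1.83 ± 0.15 on the log2 scale, followed by XRCC2 (1.54), RAD51AP1 (1.43), FANCB (1.31) and CHEK1 (1.30). The 3 that fell were ATM (-0.53 ± 0.11), ATR (-0.42 ± 0.06) and RAD50 (-0.40 ± 0.08). As a description, the share of the log2 fall in TC that was regained in PC had a median of 42.0% over the 31 members that fell, with quartiles of 23.8% and 49.4%. It ran from -69.1% for ATM, -52.4% for RAD50, -14.9% for FANCM, -3.33% for MRE11 and -2.47% for FANCC to 92.0% for RMI1 and 138% for RAD54B. Over the 19 cell cycle markers that fell, the median was 50.4%.

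Between day 2 and day 9, 35 members rose and 2 fell, where 35.7% and 34.2% of all tested genes were called (RC against PC, edgeR). The largest rises were RMI2 (2.94 ± 0.12), RAD54L (2.89 ± 0.14) and FANCD2 (2.67 ± 0.12). ATM rose by 0.71 ± 0.11 but stayed below CC. The members that fell were NBN (-0.32 ± 0.07) and MUS81 (-0.58 ± 0.09), which were among those higher in TC and PC. RAD51D, RAD52, TOP3A and FAN1 were not called.

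Other genes of the pathway were taken from a list of 64 partners (strand exchange, resection and RPA, BRCA1-A and end protection, Fanconi accessory factors, checkpoint partners and POLQ), of which 60 were tested. In TC 37 fell and 14 rose, in PC 32 fell and 17 rose, and in RC 29 rose and 5 fell (edgeR), against the shares of all tested genes given above. Their median log2 change was -0.53 in TC, -0.43 in PC and 0.36 in RC. The largest falls in TC were POLQ, the polymerase of theta-mediated end joining (-3.41 ± 0.11), EXO1, a resection nuclease (-3.07 ± 0.13), and CHEK2, a kinase downstream of ATM (-2.60 ± 0.12), which has pseudogene copies.

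The largest rises among the partners in TC were SWI5, which helps strand exchange (1.00 ± 0.12), FAAP100, a subunit of the Fanconi core (0.75 ± 0.07), and SHLD1, a shieldin subunit that opposes resection (0.71 ± 0.20). SWI5 and FAAP100 stayed higher in PC (1.05 and 0.65) and were at 0.16 and -0.01 in RC, while SHLD1 was at 0.49 in PC and fell below CC in RC (-1.01 ± 0.21, adjusted p = 0.00249, edgeR).

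**Figure D4:**
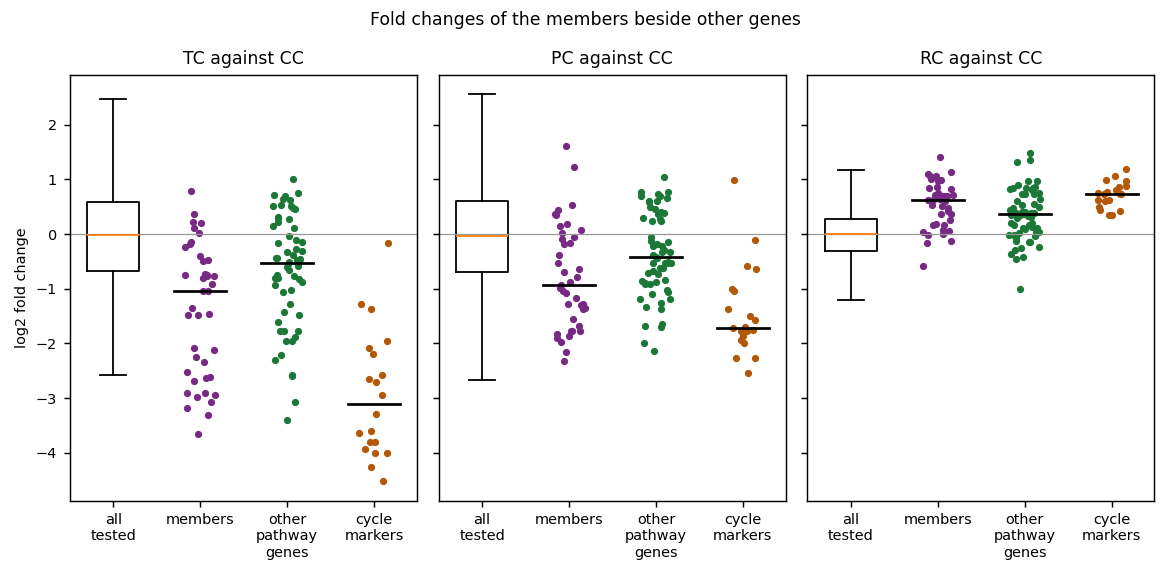
Log2 fold changes against CC in TC, PC and RC for all 15916 tested genes (box: quartiles and median; whiskers: 1.5 times the interquartile range, outliers not drawn), the 41 members, 60 other pathway genes and 20 cell cycle markers (points: genes; bars: medians). The medians in TC are -0.02, -1.05, -0.53 and -3.12, and in RC 0.00, 0.62, 0.36 and 0.73.

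The study examined the aspartate and glutamate content of proteins whose transcripts respond to MAPKi, and here the share of these residues was computed from GENCODE v44 coding sequences. The members' proteins had a median of 12.8% Asp and Glu, against 11.9% over 12726 tested genes with a complete coding sequence, and 27 of the 41 lay above that median. RAD50 (18.2%), RBBP8 (16.3%), MRE11 (16.2%), RAD51AP1 (15.2%) and BRCA1 (15.2%) were highest, and XRCC3 (9.54%) and MUS81 (9.98%) were lowest.

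Of the 5 members richest in Asp and Glu, RAD51AP1 and BRCA1 fell in TC by 2.98 and 2.53, MRE11 by 1.05, RAD50 by 0.77 and RBBP8 by 0.73, and RAD54L, with the largest fall, had 12.3%. Across the 41 members the share and the log2 change in TC had a Pearson correlation of -0.18 and a Spearman correlation of -0.24, and across all 12726 genes -0.04 and -0.06. With Asp alone the members' Spearman correlation was -0.30 and with Glu alone -0.03. These correlations are across genes, which share libraries and are not independent replicates. Of the 3 members higher in TC, NBN had 14.1%, ATR 11.5% and MUS81 9.98%.

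**Figure D5:**
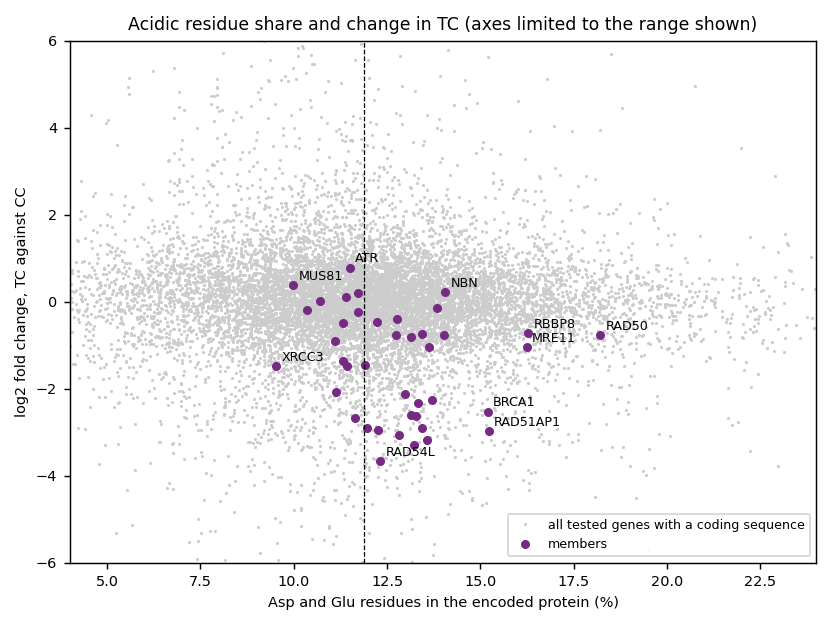
Share of Asp and Glu residues in the encoded protein (percent, x axis) against the log2 fold change in TC (y axis) for 12726 tested genes (grey) and the 41 members (purple); the dashed line is the median share of all genes, 11.9%, and the axes are limited. RAD50, at 18.2%, lies near -0.77, and RAD54L, at 12.3%, lies lowest at -3.66.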

How the data were processed

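RNA sequencing covered 12 libraries. The authors deposited raw read counts per gene, which were not normalized. Per the study's methods, reads were trimmed with fastp 0.20.1, aligned to GRCh38.p13 with HISAT2 2.2.1 and counted on exons with htseq-count 0.13.5. Strand setting and treatment of multiply aligned reads were not given in the sources used here, so genes that overlap on opposite strands may share reads. Groups follow the labels. No pair of replicates agreed within sampling noise.

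The members and lists were chosen with earlier results of these data known. Genes with a mean scaled count of at least 10 were tested. TMM factors (0.965 to 1.02) and one mean per group entered a quasi-likelihood model over the 12 libraries (edgeR 4.0.16, R 4.3.3), with 8 residual degrees of freedom and a common biological coefficient of variation of 0.182. Calls used a two-sided test, adjusted by Benjamini-Hochberg over all 15916 genes, at 0.05, and glmTreat for changes beyond 1.5-fold. CPM used normalized library sizes, and a floor of 3 counts covers counting error only. Standard errors were derived from the F statistic. The script was tested on simulated data. Alternatives were other normalizations, a summed count filter of 2, DESeq2 1.42.0, fits to the compared groups only, a replicate block and leaving out each library.

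All members are named. Values per library are given for the 3 largest falls and rises among members called against CC, and partners are named by the same rule in TC. TOP3A, FAN1 and the pairs were picked after their values were seen. Promoters came from RefSeq (GRCh38.p14). Residue shares came from canonical coding sequences of GENCODE v44, matched by symbol, in place of a protein table, which was not used here. A gene of the partner list is counted but not named here.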

Additional observations from a re-analysis of the deposited data

Results flagged for a closer look

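The effect of each group was set against the same CC libraries, and the difference between the PC and TC effects was tested as PC against TC (edgeR, adjusted p under 0.05). It differed for 27 of the 41 members, where 12.2% of all tested genes were called higher in PC than in TC and 12.5% lower. On the log2 scale, the PC effect lay above the TC effect for RAD54L (1.83), XRCC2 (1.54), RAD51AP1 (1.43), FANCB (1.31), CHEK1 (1.30), BRCA2 (1.21), FANCA (1.09), FANCD2 (1.00), EME1 (0.99), UBE2T (0.97) and BRIP1 (0.93). It lay above by less for BLM (0.77), BRCA1 (0.77), FANCG (0.76), FANCI (0.75), RAD54B (0.69), RMI1 (0.69), RMI2 (0.63), BARD1 (0.57), FANCE (0.52), XRCC3 (0.44), FANCL (0.38), RBBP8 (0.35) and GEN1 (0.30). The PC effect lay below the TC effect for ATM (-0.53), ATR (-0.42) and RAD50 (-0.40). The calls of XRCC3, RBBP8, FANCL and GEN1 were lost when single libraries were left out, and that of GEN1 also with a summed count filter (adjusted p = 0.0654, edgeR). Groups of 3 libraries were not tested for outlying samples.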

How the results depend on the processing

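With 3 libraries per group, FAN1 and TOP3A had the largest standard errors of the members. FAN1 had low counts, and both varied widely between replicates. The counts of members and of partner genes called in each direction stayed within 1.5 times of the values given under other normalizations, the other filter, DESeq2, fits to the compared groups only and a replicate block. When single libraries were left out, members higher beyond 1.5-fold in PC ranged from 0 to 1, members lower in RC from 1 to 3 and members higher beyond 1.5-fold in RC from 2 to 9, and the members' median log2 change ranged from -1.094 to -0.996 in TC and from -1.01 to -0.869 in PC. The PC median was -0.9955 without FAN1 and TOP3A, a choice made after seeing the data.

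Deviations from the group means correlated at -0.0473 to 0.202 between libraries of the same replicate number and at -0.174 to 0.0591 between others. Between TC and PC the correlations were 0.202, 0.0641 and 0.181 for the same number and -0.174 to -0.00344 for other numbers. Such weak pairing was not part of the main fit. With the replicate number as a block, 32 members were lower in TC, with FANCL added. In PC 5 were higher, with TOP3A added, and in RC 27 were higher. With this block FAN1 was called higher in PC than in TC, and TOP3A in TC, which was uncalled, changed sign to -0.049.

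Each value that changed sign was uncalled both ways, and the cause was not tested. With upper quartile factors these were, on the log2 scale, FANCF in TC (-0.0045), RAD51D in RC (-0.033), NBN in RC (-0.0070), and MRE11 (0.0011) and FANCC (0.014) in PC against TC. With library totals they were MRE11 in RC (0.014) and RAD51D in RC against PC (0.0074). Leaving out single libraries gave ranges of -0.62 to 0.38 for TOP3A and -0.045 to 0.077 for FANCF in TC, and of -0.18 to 2.79 for FAN1 and -0.019 to 0.15 for SLX4 in PC. In RC the ranges were -0.012 to 0.045 for RAD51D, -0.055 to 0.043 for MRE11, -0.019 to 0.076 for NBN, -0.026 to 0.13 for RBBP8 and -0.11 to 2.96 for FAN1. In PC against TC they were -0.10 to 0.0055 for MRE11 and -0.060 to 0.053 for FANCC, and in RC against PC -0.040 to 0.012 for RAD51D and -1.35 to 1.59 for FAN1.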
